A study of Mus musculus with 5 samples.

Results

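The lymphoid priming genes are 9 genes used in hematopoiesis as signs of an early lymphoid fate: Dntt, Satb1, Cd52, Il12a, Notch1, Il7r, Ltb, Ebf1 and Rag1. They were taken by name, and all 9 were found among the 15287 genes of the UMI table (unique molecular identifiers, each a counted RNA molecule). The table held 12893 bone marrow cells from 5 libraries, prepared with the Chromium Single Cell 3' kit. All cells came from mice of the strain Fgd5CreERT2/+Rosa26Tomato/+, 20 weeks old and untreated, and shared the Lin-CD45.2+c-kit+ gate. The 3 Lin-kit+ libraries, named a, b and c here, had no further gate and held 1339, 4095 and 6147 cells. The 2 reporter-positive libraries, Fgd5+ and HSC-Fgd5+, held 1312 cells between them. ZsGreen marked the positive cells, from a reporter driven by Fgd5, and the HSC-Fgd5+ gate added Sca1+, CD150+ and absence of CD48. Cells carried 1 of 5 barcode suffixes, and these were tied to the populations by cell number alone, so every difference between populations depends on that assignment. The titles of the 2 reporter-positive samples and their sorting descriptions disagree about which is which, so these libraries were treated as 1 group of n = 2.

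Hematopoietic stem cells (HSCs) reach the lymphoid lineages through multipotent progenitors that raise Flt3, the receptor of a growth factor for early progenitors. Some of these progenitors start to transcribe lymphoid genes at low levels before commitment, which is called priming, and myeloid genes can be transcribed in the same cells. Among the members, Notch1 and Il7r (the interleukin-7 receptor alpha chain) are receptors. Ltb (lymphotoxin beta) and Il12a (the p35 chain of interleukin-12) are ligand genes. Satb1 (a chromatin organizer) and Ebf1 (a B-cell factor) act in the nucleus. Dntt (terminal deoxynucleotidyl transferase) and Rag1 (a subunit of the V(D)J recombinase) act on antigen receptor genes, and Cd52 encodes a small surface glycoprotein of lymphocytes and other leukocytes.

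Library totals ran from 2166655 to 36080242 UMIs, with median UMI totals per cell of 3721 to 6567. A count of 3 UMIs stood for 0.083 to 1.38 CPM (counts scaled to a library total of 1000000 UMIs), depending on the library. A total of 62 barcodes occurred in more than 1 library, of which 17 were shared between a Lin-kit+ and a reporter-positive library. The numbers of mice behind the libraries are not given in the sources used here, so no p-value covers the spread between mice. The p-values use a spread between library sums that is estimated in part across genes and may be technical. Sort and library preparation cannot be told apart from population. Of the 1312 reporter-positive cells, 1292 fell in HSC-like clusters or in a Ptn-led cluster in which all 8 HSC markers were raised, against 43 of 11581 Lin-kit+ cells.

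On the GRCm38 build, Dntt lies on the plus strand at chr19:41029275-41059525, Il7r on the minus strand at chr15:9505788-9530176 and Ltb on the plus strand at chr17:35194439-35196320. In GENCODE M21 no other gene overlaps Dntt or Il7r, and within Ltb there is a miRNA gene, Mir6973a. Cd52, Satb1, Ebf1 and Notch1 overlap a gene on the other strand. Satb1 and Rag1 overlap annotated transcripts of unnamed genes on their own strand, so the UMIs of Satb1 and Rag1 are less certainly theirs. The 250 bases before the RefSeq start (GRCm38.p6) are shown for Dntt and Il7r, which were highest in the same cells, and for Ltb, which was high in HSC-like cells. The RefSeq starts of Il7r and Ltb lie within the GENCODE gene, so these windows reach into it. Capitals mark matches to CANNTG (the E-box, bound by E proteins), TGGGAA (the core bound by Ikaros) or GGAAGT (a core bound by ETS factors) on either strand.
Dntt, chr19:41029025-41029274: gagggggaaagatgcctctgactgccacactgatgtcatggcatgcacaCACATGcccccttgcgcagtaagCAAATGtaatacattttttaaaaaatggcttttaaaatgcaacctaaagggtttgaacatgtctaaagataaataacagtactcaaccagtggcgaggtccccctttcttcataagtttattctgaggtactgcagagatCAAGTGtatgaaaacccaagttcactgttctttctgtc
Il7r, chr15:9529877-9530126: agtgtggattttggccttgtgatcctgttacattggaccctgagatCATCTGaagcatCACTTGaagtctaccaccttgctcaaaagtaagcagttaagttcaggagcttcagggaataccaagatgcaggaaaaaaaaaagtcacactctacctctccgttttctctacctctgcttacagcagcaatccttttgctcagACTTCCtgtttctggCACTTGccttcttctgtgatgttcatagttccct
Ltb, chr17:35194257-35194506: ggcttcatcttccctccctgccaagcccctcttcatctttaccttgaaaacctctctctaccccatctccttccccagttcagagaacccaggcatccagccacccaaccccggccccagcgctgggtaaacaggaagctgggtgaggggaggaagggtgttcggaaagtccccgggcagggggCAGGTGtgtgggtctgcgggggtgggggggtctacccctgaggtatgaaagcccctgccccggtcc
CANNTG occurred at 3 places before Dntt, at 3 before Il7r and at 1 before Ltb. At least 1 match to it is present in 66.2% of the 32851 promoter windows of this length. GGAAGT (19.7% of windows) matched once, before Il7r at 49 bases from the start, and TGGGAA (21.6%) matched in none of the 3. The matches describe these letters only.

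The first comparison asked which of the genes are on in reporter-positive cells. Ltb was far higher there than in Lin-kit+ cells, whereas Dntt and Il7r were nearly absent. Cd52 was far lower than in Lin-kit+ cells and Satb1 was lower, but both were present. Il12a and Notch1 were present at about the same level in both populations. Of the 8 members that passed the filter on low counts, 6 passed the test (edgeR quasi-likelihood test, Benjamini-Hochberg adjusted p under 0.05), 1 higher and 5 lower. Of all 11991 genes tested, 63.1% passed, 32.7% as higher and 30.4% as lower in reporter-positive cells, so the number of calls among the members is not itself particular. The members' median log2 fold change was -1.11, against 0.07 for all genes tested.

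Ltb gave 8.80, 6.26 and 2.61 CPM in Lin-kit+ a, b and c, and 322 and 332 in Fgd5+ and HSC-Fgd5+ cells. The groups did not overlap, and the reporter-positive libraries lay close together while the Lin-kit+ libraries differed among themselves. The log2 fold change was 5.37 (SE 0.42, edgeR adjusted p = 4.38e-05). A UMI of Ltb was found in 65.2% of Fgd5+ and 54.5% of HSC-Fgd5+ cells (95% Wilson intervals 61.8 to 68.4% and 50.2 to 58.8%), and in 36.7% and 33.7% after thinning each cell to 1500 UMIs. In Lin-kit+ a, b and c the share was 4.03%, 2.49% and 1.40%, against 3.19%, 0.61% and 0.43% of the erythroid-like cells of the same library, which should lack Ltb (94, 326 and 466 cells). Intervals here and below cover counting error only.

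Dntt showed the reverse. It gave 58.7, 80.3 and 68.6 CPM in Lin-kit+ a, b and c, 0.72 in Fgd5+ cells and 0 in HSC-Fgd5+ cells. The count of 0 allows a share of up to 0.578% of HSC-Fgd5+ cells with a UMI, which is a limit on detection and not on the share of cells with the transcript. The whole reporter-positive signal was 3 UMIs in 2 cells, against 4562 UMIs in Lin-kit+ cells, a ratio of pooled levels of 149 (95% counting interval 50.9 to 722). One of the 2 cells, with 8114 UMIs, had a UMI of Procr, the HSC surface marker, and 3 of Ltb. The other, with 3800 UMIs, had 8 of Ltb and none of Procr. The fitted log2 fold change was -7.70 (SE 0.39, edgeR adjusted p = 8.28e-06).

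Cd52 was even between the Lin-kit+ libraries, at 558, 552 and 543 CPM, and was found in 67.7 to 75.3% of their cells. It gave 27.8 in Fgd5+ and 10.2 in HSC-Fgd5+ cells, with a UMI in 5.30% and 2.50% of cells. In erythroid-like cells of the Lin-kit+ libraries the share was 3.55% ± 0.75 (SD, n = 3). The reporter-positive libraries held hardly any erythroid-like cells, so their own background could not be measured this way. Much of the Fgd5+ signal sat in few cells. The 15 Fgd5+ cells outside the HSC-like and Ptn-led clusters held 76 of the library's 116 Cd52 UMIs. The 778 Fgd5+ cells within these clusters gave 9.86 CPM. The log2 fold change was -5.28 (SE 0.33, edgeR adjusted p = 1.7e-05).

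Il7r was low everywhere, with 2.70, 3.10 and 2.13 CPM in Lin-kit+ a, b and c, none in Fgd5+ cells and 2 UMIs in HSC-Fgd5+ cells. Pooled, Lin-kit+ was 7.92 times higher (95% counting interval 2.16 to 66.0), and the log2 fold change was -3.51 (SE 0.80, edgeR adjusted p = 0.00718; 0.0703 without the Fgd5+ library). Both Il7r UMIs came from a single HSC-Fgd5+ cell that also held all 9 Ebf1 UMIs of the reporter-positive libraries. That cell had 9 UMIs of Ly6d, 7 of Blnk and 4 of Cd79a, which are genes of B-lymphoid progenitors, and none of Procr, Kit or Ltb. Ebf1 was found in 8, 7 and 14 cells of Lin-kit+ a, b and c, with 34, 14 and 32 UMIs, and 61.8% of the 34 came from 1 cell. Its difference between populations did not pass the test (edgeR adjusted p = 0.805). Rag1 was too low to test, with 4, 4 and 3 UMIs in the Lin-kit+ libraries and none in the reporter-positive ones, whose counts of 0 allow up to 0.378% of Fgd5+ and 0.578% of HSC-Fgd5+ cells with a UMI and set no limit on cells with the transcript.

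Satb1 gave 16.1, 16.8 and 14.0 CPM in Lin-kit+ a, b and c, and 5.76 and 7.85 in Fgd5+ and HSC-Fgd5+ cells. The groups did not overlap, and the log2 fold change was -1.78 (SE 0.19, edgeR adjusted p = 0.000217). No reporter-positive cell had more than 1 Satb1 UMI. Il12a gave 21.7, 24.4 and 21.8 against 27.6 and 24.9, groups that did not overlap, with the reporter-positive libraries higher in CPM. It was found in 11.2% of Fgd5+ and 8.48% of HSC-Fgd5+ cells. In erythroid-like cells of the Lin-kit+ libraries the share was 1.66% ± 0.65 (SD, n = 3), which is not a background of the reporter-positive libraries. The log2 fold change of Il12a, -0.31 (SE 0.12), did not pass the test (edgeR adjusted p = 0.0599). Notch1 gave 12.3, 13.01 and 13.8 against 12.5 and 16.2, and these groups overlapped. Its log2 fold change was -0.44 (SE 0.15, edgeR adjusted p = 0.0393). The sign of the last 2 depended on the scaling: with library totals in place of TMM factors the median of all genes moved from 0.07 to 0.60, Il12a came to 0.23 and Notch1 to 0.09, and neither passed. Neither is therefore given a direction here.

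**Figure D1:**
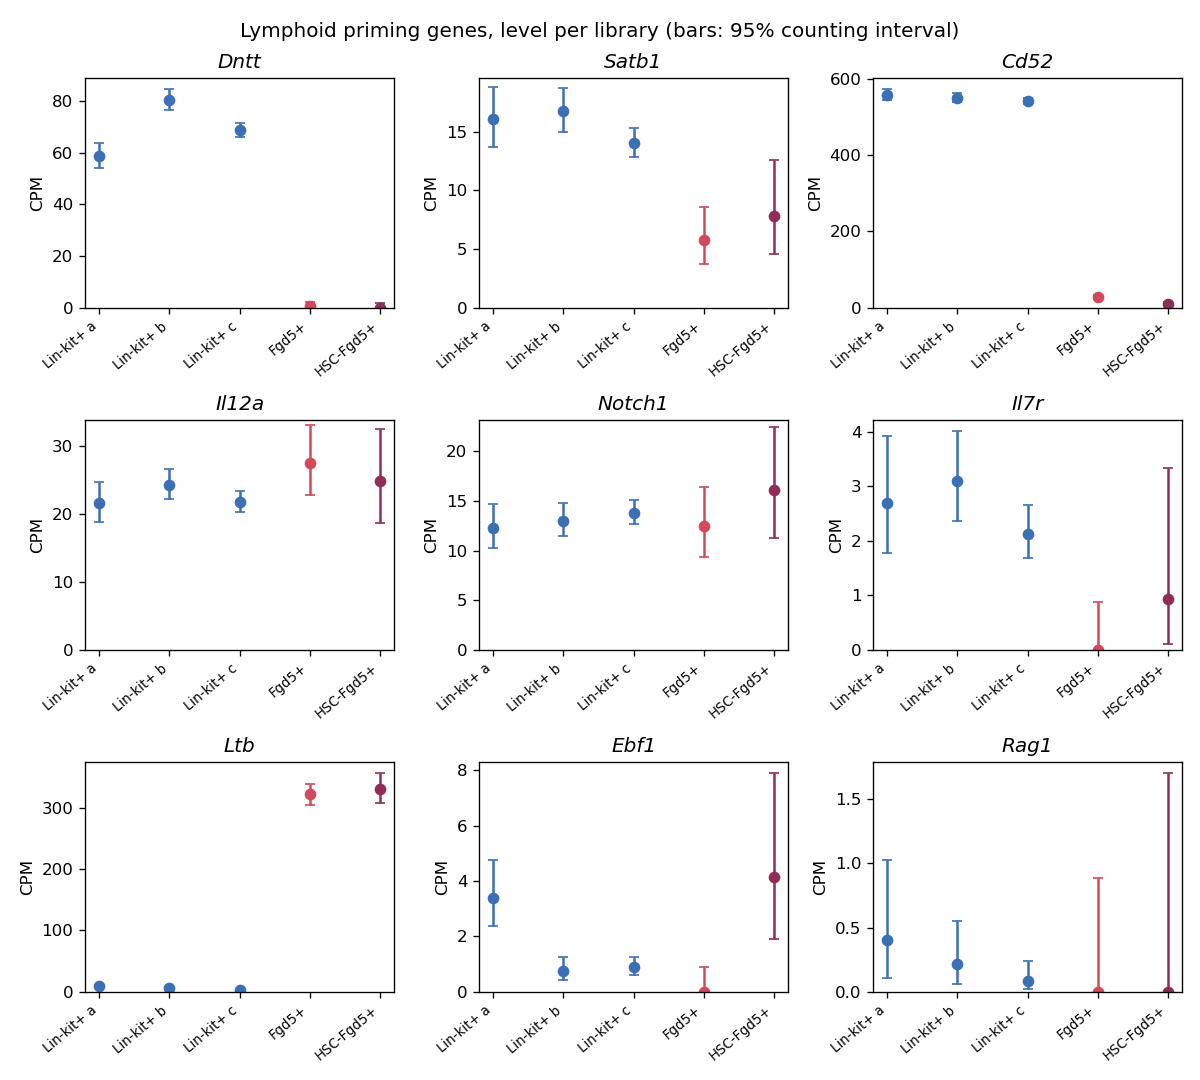
Level of each lymphoid priming gene (CPM, linear axis from 0) in the 3 Lin-kit+ libraries (blue) and the Fgd5+ and HSC-Fgd5+ libraries (red tones), with 95% counting intervals as bars. Ltb stands at 322 and 332 in the reporter-positive libraries and under 9 in the others, Dntt and Cd52 show the reverse, and Il12a and Notch1 are near level.

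Ltb was then compared between reporter-positive cells inside and outside the HSC-like clusters. The 778 Fgd5+ and 514 HSC-Fgd5+ cells in the HSC-like and Ptn-led clusters gave 327 and 334 CPM. The 15 Fgd5+ and 5 HSC-Fgd5+ cells outside them gave 161 (95% counting interval 95.3 to 254) and 164 (44.7 to 420), so Ltb was not limited to these clusters in the reporter-positive libraries. The 43 Lin-kit+ cells in the same clusters gave 61.2 (95% counting interval 26.4 to 121), and all other Lin-kit+ cells gave 4.50. Procr, which marks HSCs, gave 125 and 146 in the 778 and 514 cells and 68.9 (31.5 to 131) in the 43. These clusters were formed without the members, Flt3 or Fgd5. Il12a was at 27.4 and 25.2 in the 2 reporter-positive sets and Notch1 at 12.6 and 15.9, close to the levels of the whole libraries.

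Of the other lymphoid genes on a list of 38, 27 could be tested, and 12 were higher, 7 lower and 8 not past the threshold in reporter-positive cells. Over all 11991 genes tested, 32.7% were higher and 30.4% lower, so the number of calls is not itself particular. Their median log2 fold change was 0.45, against 0.07 for all genes. Among those with the largest change were Rag2, the partner of Rag1 (-7.16, SE 1.60), Tcf7 (a T-lineage factor, -3.91, SE 0.93) and Gata3 (a factor of T cells that HSCs also express, 3.86, SE 0.26), with edgeR adjusted p of 0.00896, 0.00843 and 2.3e-05. Rag2 had 77 UMIs in the Lin-kit+ libraries and 0 in the reporter-positive ones, and Tcf7 had 109 and 1. The size of these 2 changes is therefore poorly determined. All 10 myeloid genes examined for co-detection were lower, where 30.4% of all genes tested were. Among them was Mpo, the granule enzyme myeloperoxidase (-7.48, SE 0.69, edgeR adjusted p = 9.56e-05).

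The Lin-kit+ libraries were then divided into clusters to find where each member was expressed. Clusters are named "-like" from fixed marker lists. They are named by their leading gene where no list fitted, or where their 10 leading genes held more markers of another list. The Dntt-led cluster had 6 raised markers of the multipotent Flt3 progenitor list, with 1 B-lymphoid marker among its 10 leading genes. The Siglech-led cluster had 5 raised markers of the monocyte list, but none of that list was among its 10 leading genes, which held 1 dendritic and 1 T or NK marker. Levels below are means over the 3 libraries with SD, and they are descriptions with no test. Of the 9 members, 6 were highest in the same 343 cells, a Dntt-led cluster that made up 2.96% of Lin-kit+ cells. Dntt was at 2176 ± 70.2 CPM there, found in 86.1% of cells, and 65.4% of all Lin-kit+ Dntt UMIs came from it. Il12a was at 255 ± 12.5, Satb1 at 121 ± 7.18 and Il7r at 84.2 ± 8.27, with 68.5% of Il7r UMIs. The cluster held 74 of the 80 Ebf1 UMIs and 10 of the 11 Rag1 UMIs. Ebf1 varied widely between libraries, from 29.7 to 187.

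Outside it, Dntt was next highest in an Slc16a11-led cluster (208 ± 50.8), the megakaryocyte-like clusters (174 ± 2.76), the Siglech-led cluster (121 ± 9.53) and the multipotent Flt3 progenitor-like cluster (61.5 ± 9.52). The first and second of these did not differ beyond their spread. The megakaryocyte-like signal came from 1 of 2 clusters, which held 63 cells with Dntt and 95 with Pf4, a platelet chemokine gene, among 392 cells. Only 2 cells had both, against 15.3 if the genes were independent, and the other cluster of 286 cells had no Dntt UMI. Dntt and Pf4 were thus found mostly in separate cells.

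Cd52 and Ltb followed other cells. Cd52 was highest in B-lymphoid-like cells (3882 ± 628, 26 cells) and T or NK-like cells (2824 ± 1870, 15 cells), which did not differ beyond their spread, and then in dendritic-like (2348 ± 107), late neutrophil-like (1087 ± 47.0) and monocyte-like cells (690 ± 9.47). The Dntt-led cluster was at 445 ± 36.0. Late neutrophil-like and monocyte-like cells held 31.5% and 31.1% of Cd52 UMIs. Ltb was highest in the few T or NK-like cells (757 ± 241) and next in the 31 HSC-like cells (111 ± 102). The Slc16a11-led cluster, in which 6 of 8 HSC markers were raised, gave 89.0 ± 61.5 and 34.4% of Lin-kit+ Ltb UMIs, with library values from 30.9 to 153. Notch1 was at 58.5 ± 8.19 in the Dntt-led and 35.03 ± 11.95 in the Siglech-led cluster. Its 86.4 ± 80.6 in T or NK-like cells rested on 2 UMIs.

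**Figure D2:**
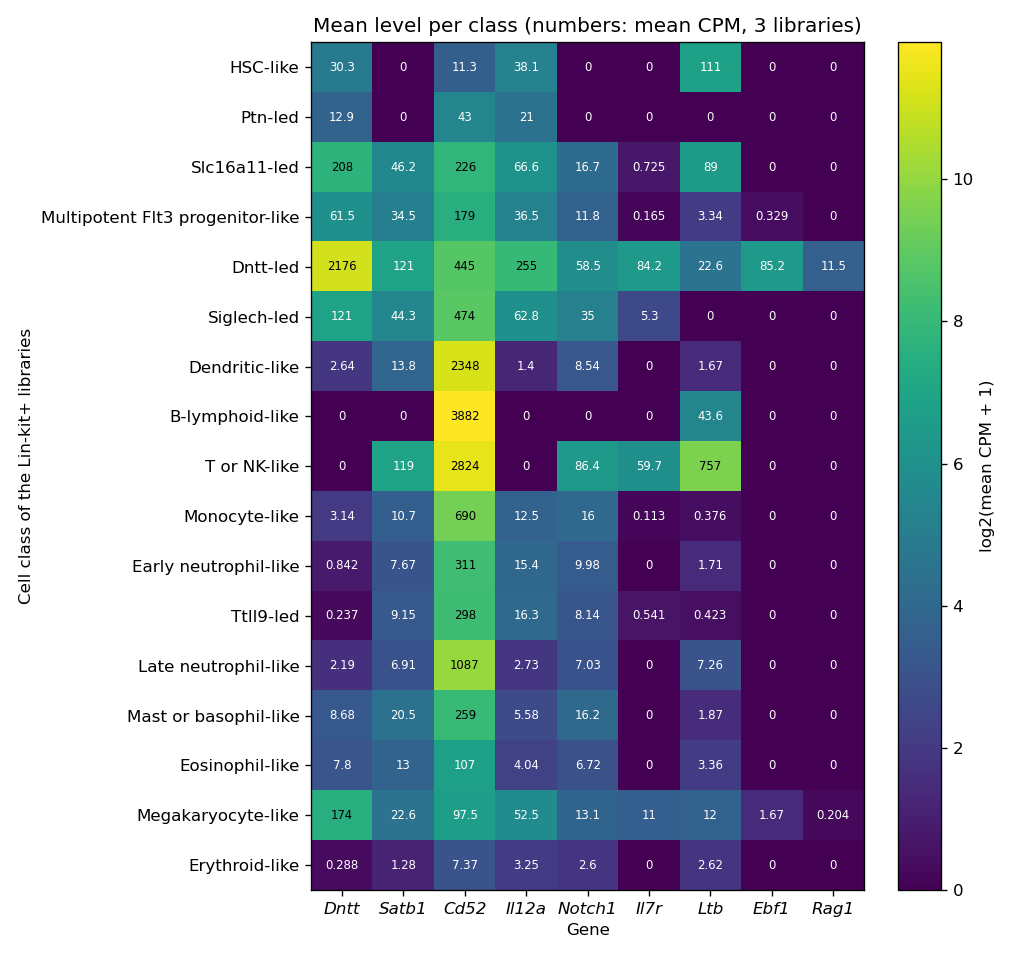
Mean level of each lymphoid priming gene (printed as CPM, n = 3 libraries; colour as log2 of the mean plus 1) in the cell classes of the Lin-kit+ libraries. The Dntt-led row holds the high values of Dntt (2176), Il12a (255), Il7r (84.2), Ebf1 and Rag1, while Cd52 is high in mature-type rows and Ltb in the T or NK-like, HSC-like and Slc16a11-led rows.

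Single cells showed the same grouping. All 29 Lin-kit+ cells with an Ebf1 UMI and all 10 with a Rag1 UMI also had Dntt, as did 91 of 109 cells with Il7r, 336 of 1122 with Il12a and 220 of 857 with Satb1. Of the 242 cells with Ltb, 40 had Dntt. Within strata of UMI total, the Mantel-Haenszel odds ratio with Dntt was 15.9 ± 2.83 (SD, n = 3 libraries) for Il12a, 8.84 ± 0.80 for Satb1, 4.95 ± 1.62 for Notch1, 2.91 ± 0.61 for Ltb and 1.52 ± 0.29 for Cd52. At least 3 of the 7 members other than Cd52 and Ltb were found together in 2.84%, 2.12% and 2.26% of the cells of Lin-kit+ a, b and c. No cell of the reporter-positive libraries had 3, and 8 and 6 cells had 2.

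By likeness of log2(CPM + 1) over 26 clusters and 10155 genes, Dntt was closest to Gimap7 (r = 0.90), Gm5111 and Ldlrad4. Il7r was closest to Arpp21 (r = 0.92), Blnk and Mzb1, Il12a to Sh2d5 (r = 0.91), Il21r and Sirt3, and Satb1 to Tes (r = 0.84), Smim14 and Ldlrad4. Notch1 was closest to Arid5a (r = 0.86) and 1110059E24Rik, Cd52 to Sh3bgrl3 (r = 0.96), Tpm3 and Coro1a, and Ltb to Qsox1 (r = 0.86), Fam32a and Ddx58. The points share libraries and depth, and the correlations are descriptions.

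The second comparison asked which members go with Flt3. In Lin-kit+ cells with a Flt3 UMI, Dntt, Il7r, Ebf1, Il12a, Satb1, Notch1 and Ltb were higher than in cells without one. Cd52 was slightly lower in summed level but was found in a larger share of cells. A Flt3 UMI was found in 117, 260 and 381 cells of Lin-kit+ a, b and c, which is 8.74%, 6.35% and 6.20%. Counts were summed over cells with and without Flt3 in each library and tested with the library as a block. The spread was estimated from the sums of all 5 libraries and in part across genes. SEs and p-values of this contrast therefore do not measure the spread between the 3 Lin-kit+ libraries alone. Of 8 members tested, 8 passed, 7 of them as higher, where 25.2% of the 10468 genes tested passed, 11.2% as higher and 14% as lower. The median log2 fold change of the members was 2.21, against 0.02 for all genes.

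Dntt was at 570 ± 126 CPM in cells with Flt3 and at 31.9 ± 11.6 in cells without (SD, n = 3), a log2 fold change of 3.95 (SE 0.08, edgeR adjusted p = 1.16e-53). Il7r was at 18.6 ± 3.54 against 1.40 ± 0.45 (3.43, SE 0.30), Il12a at 95.1 ± 16.0 against 17.1 ± 1.64 (2.26, SE 0.11) and Satb1 at 62.8 ± 5.70 against 11.9 ± 1.502 (2.17, SE 0.13). Notch1 was at 34.2 ± 3.84 against 11.5 ± 0.997 (1.37, SE 0.16). All 5 genes also passed when each cell was thinned to 1500 UMIs.

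The remaining genes were less even. Ebf1 was at 7.13 ± 3.51 against 1.23 ± 1.24 (2.41, SE 0.49, edgeR adjusted p = 5.06e-05). Ltb was at 16.2 ± 12.3 against 4.99 ± 2.21 (1.32, SE 0.27, edgeR adjusted p = 6.86e-05; 0.159 by DESeq2). Its odds ratio with Flt3 was 3.20 and 2.88 in libraries a and b and 1.06 in c. Cd52 was at 520 ± 33.8 against 554 ± 11.97 (-0.28, SE 0.06, edgeR adjusted p = 0.000144). With library totals it came to -0.09 and did not pass (edgeR adjusted p = 0.247), and after thinning it came to 0.10 (edgeR adjusted p = 0.764).

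No member was restricted to cells with a Flt3 UMI. Of the 29 cells with Ebf1, 16 had Flt3, and of the 10 with Rag1, 4 did. Of cells with a UMI of the gene, the share that also had Flt3 was 46.9% ± 5.67 for Dntt, 44.9% ± 2.66 for Il7r, 25.4% ± 6.62 for Satb1, 24.1% ± 5.09 for Il12a, 16.7% ± 2.80 for Notch1, 14.96% ± 7.65 for Ltb and 7.66% ± 1.70 for Cd52 (SD, n = 3). Flt3 itself was low, at 1.28 to 1.56 UMIs per cell with one, so a cell without a UMI is not a cell without Flt3. Cells with Flt3 made up 46.4% of the Dntt-led, 27.1% of the Siglech-led, 20.0% of the Slc16a11-led, 16.1% of the multipotent Flt3 progenitor-like and 15.8% of the dendritic-like cells. Of 23 other lymphoid genes tested, 17 were higher with Flt3, 0 lower and 6 not past the threshold, where 11.2% of all genes tested were higher and 14% lower. The largest changes were in Rag2 (3.47, SE 0.45), Blnk (3.30, SE 0.26), Ccr7 (3.05, SE 0.51) and Ly6d (2.79, SE 0.16), with edgeR adjusted p of 1.99e-09, 2.39e-18, 1.37e-06 and 8.68e-26.

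In reporter-positive cells this pattern was not detected. A Flt3 UMI was found in 52 Fgd5+ and 17 HSC-Fgd5+ cells, which were deeper than the rest (median 6334 against 4261 UMIs and 6647 against 3648). After thinning, only 9 Fgd5+ and 4 HSC-Fgd5+ cells kept a Flt3 UMI. Thinned counts on so few cells cannot decide the part of depth, which was not tested otherwise. Of 10468 genes, 1.89% passed, and of the members only Cd52 (log2 fold change 1.59, SE 0.27, edgeR adjusted p = 0.000274). This call was lost in thinned cells (-7.97 on few counts, edgeR adjusted p = 0.617), with no replicate block (1.75, edgeR adjusted p = 0.208), without the Fgd5+ library (2.49, edgeR adjusted p = 0.158) and without the dendritic-like and Siglech-led clusters (0.77, edgeR adjusted p = 0.635). Without the Fgd5+ library Ltb passed as lower with Flt3 (-1.38, edgeR adjusted p = 0.0366). The difference of the Flt3 contrast between the populations passed for 6.88% of genes. Among the members it passed for Il12a (-2.65, SE 0.38, edgeR adjusted p = 3.02e-07), Ltb (-1.67, SE 0.31, edgeR adjusted p = 7.79e-05), Satb1 (-2.32, SE 0.73, edgeR adjusted p = 0.0355) and Cd52 (1.87, SE 0.28, edgeR adjusted p = 5.55e-06), where a negative value means a smaller Flt3 contrast in reporter-positive cells. In thinned cells, on these 9 and 4 cells with Flt3, Ltb still passed (edgeR adjusted p = 0.00863). Il12a, Satb1 and Cd52 did not (edgeR adjusted p = 0.205, 0.992 and 0.624). For Notch1 it was -1.17 (SE 0.52, edgeR adjusted p = 0.198), and for Dntt, Il7r and Ebf1 the reporter-positive counts were too few to place it. By cells, 6 of 89 Fgd5+ cells with Il12a had Flt3, against 8.14 expected within strata of UMI total, and 37 of 517 with Ltb, against 33.5.

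**Figure D3:**
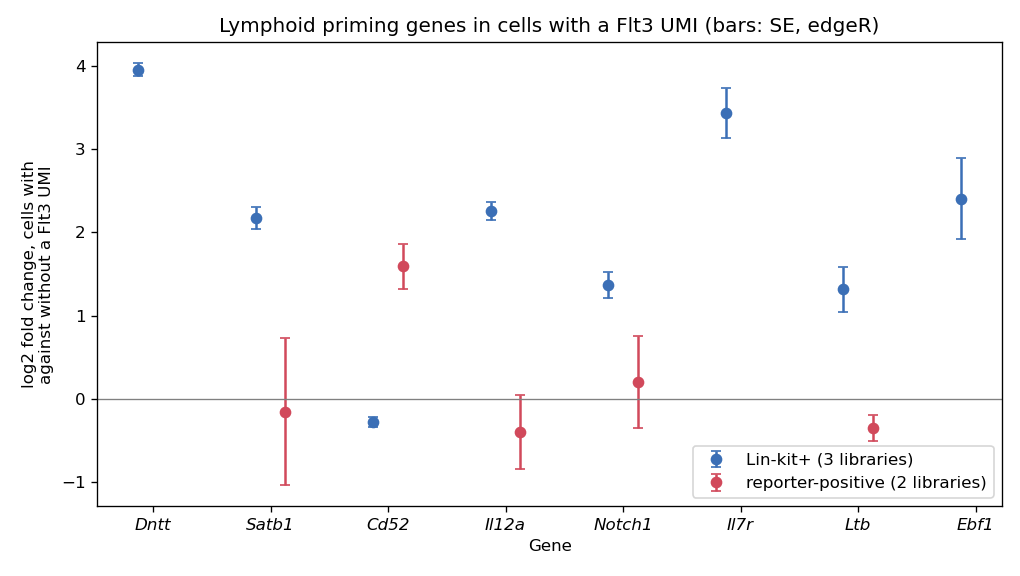
Log2 fold change of each gene between cells with and without a Flt3 UMI in Lin-kit+ (blue, n = 3 libraries) and reporter-positive cells (red, n = 2), with the SE of the edgeR fit as bars; reporter-positive points of Dntt, Il7r and Ebf1, with too few UMIs to place, are not drawn. In Lin-kit+ cells 7 genes lie above 0, and in reporter-positive cells only Cd52, at 1.59, passed the test.

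The third comparison asked whether lymphoid priming and myeloid genes occur in the same Lin-kit+ cells, with 10 myeloid genes: the granule genes Mpo, Elane, Prtn3, Ctsg and Ms4a3, the factors Cebpa and Irf8 and the receptors Csf1r, Csf3r and Fcgr3. Dntt was found less often with 8 of them than strata of UMI total would give, in each of the 3 libraries. It was found more often with Irf8, a factor of monocyte, dendritic and B-cell development. The odds ratio with Mpo was 0.319, 0.450 and 0.652 in Lin-kit+ a, b and c, a mean of 0.474 that moved to 0.182 in cells thinned to 1500 UMIs. Means were 0.16 ± 0.064 with Elane, 0.050 ± 0.010 with Ms4a3 and 2.60 ± 0.32 with Irf8 (SD, n = 3). The share of all genes that lie below 1 with these myeloid genes was not computed, so the counts of genes here and below are descriptions. Of 673 cells with Dntt, 384 had Mpo and 208 had Elane.

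How that overlap was made up differed between clusters. Of the 75 multipotent Flt3 progenitor-like cells with Dntt, 74 had Mpo, with a median of 6 Mpo UMIs, but Mpo was found in 99.7% ± 0.24 (SD, n = 3) of all cells of this cluster. In the Dntt-led cluster 143 of 296 Dntt cells had Mpo (48.3%), with a median of 0 and a mean of 0.86 UMIs. Erythroid-like cells, taken as the measure of free RNA, had Mpo in 17.5% and Elane in 22.1% of cells, with a mean of 0.27 Mpo UMIs. After thinning to 1500 UMIs, Mpo was found in 17.1%, 21.5% and 21.6% of Dntt-led cells of Lin-kit+ a, b and c, and in 3.19%, 4.73% and 7.73% of erythroid-like cells, so it lay above that background in each library. Elane, at 2.86%, 8.46% and 11.1% against 3.19%, 6.18% and 12.7%, did not.

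Among the other members, Il7r was below 1 in each library with 7 of the 10 genes, Ltb with 7, Il12a with 6, Satb1 with 4 and Notch1 with 4. These counts have no share over all genes beside them, and Il7r was found in only 15, 39 and 55 cells of Lin-kit+ a, b and c. With Irf8, Il12a (1.79 ± 0.13), Satb1 (2.01 ± 0.30) and Notch1 (2.20) were above 1 in each library, and Ltb was below (0.24 ± 0.022). Ltb was above 1 with 1 gene, Prtn3 (1.33 ± 0.12). Prtn3 was also the exception in HSC-like cells: it was found in 87.0% of the HSC-like cells of the Fgd5+ library and in 74.1% of those of the HSC-Fgd5+ library, where Mpo was found in 0.45% and 0%. Satb1 with Mpo was 1.06 ± 0.070, and came to 0.63 in thinned cells. Cd52 went the other way from Dntt, above 1 in each library with 9 of the genes, among them Elane (2.95 ± 0.40) and Irf8 (3.38 ± 0.11), and below 1 with Cebpa (0.81).

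**Figure D4:**
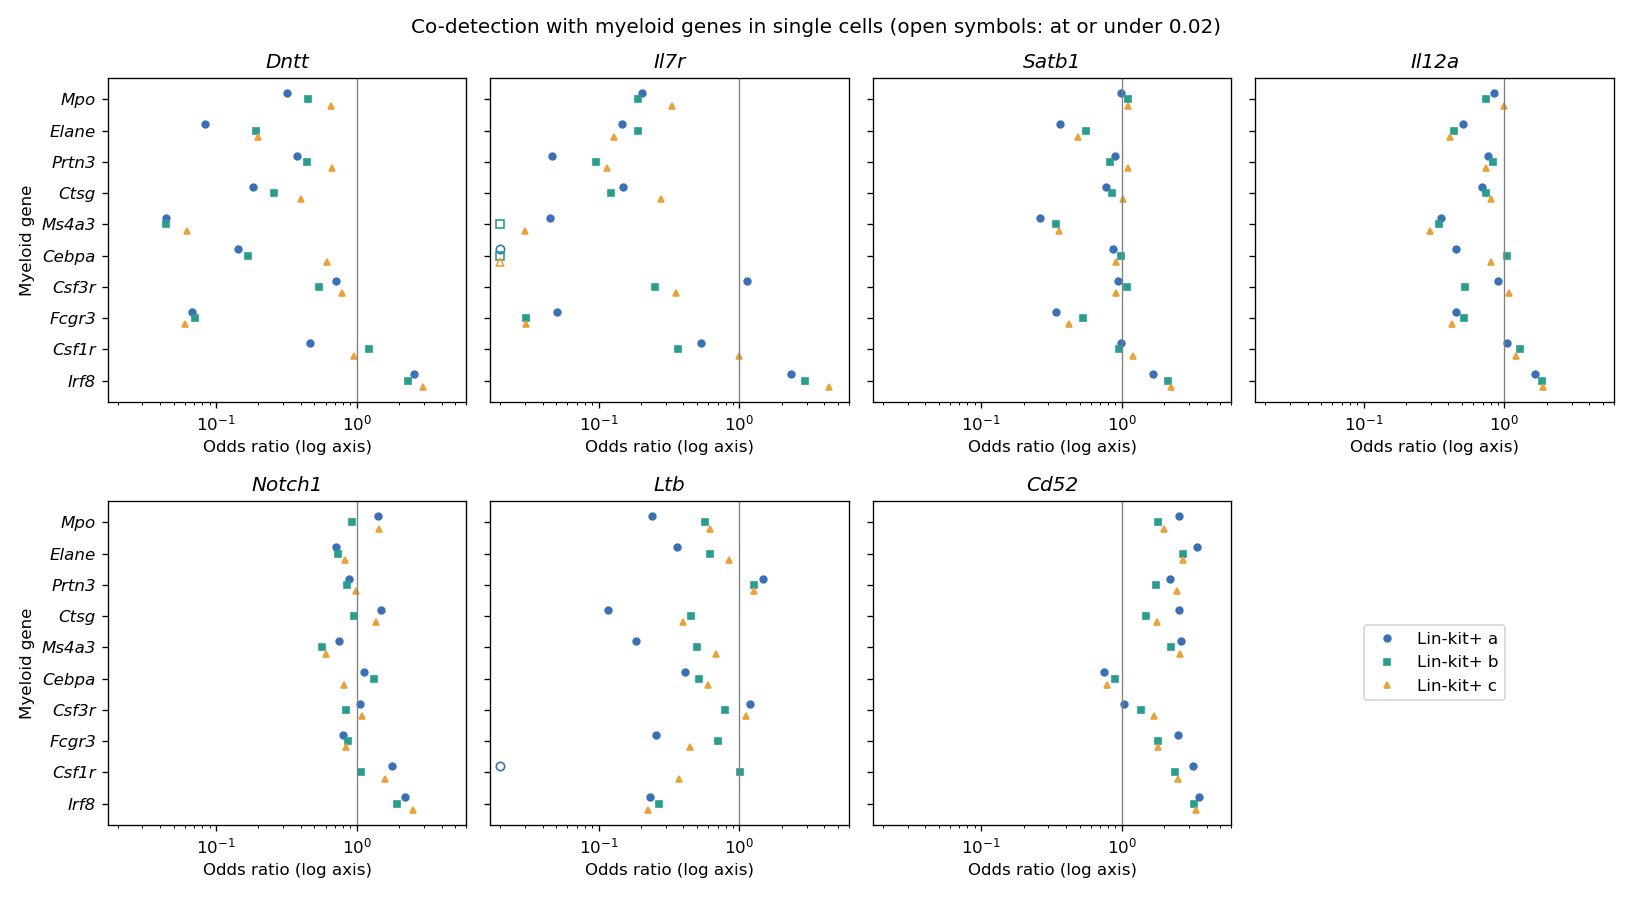
Odds ratio of finding a UMI of each lymphoid priming gene and of each of 10 myeloid genes in the same cell (log axis, within strata of UMI total), with 1 symbol per Lin-kit+ library; open symbols lie at or under 0.02, and the line marks 1. Dntt and Il7r lie left of the line for most genes and right of it for Irf8, and Cd52 lies right of it for 9 of 10.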

How the data were processed

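Reads were processed by the authors with Cell Ranger, for which the submitters' processing notes name versions 1.3 and 2.1, and Seurat 2.3.4. The authors deposited UMI counts per gene and cell, not normalized, for 5 libraries. Which library went with which Cell Ranger version is not given in the sources used here. The counts were used as deposited. The genes and lists were chosen with earlier results of these data known.

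Counts were summed per library, or per library and Flt3 status, and tested with edgeR 4.0.16 (TMM, its filter on low counts, R 4.3.3), with DESeq2 1.42.0 as an alternative. The test was checked on simulated data. For the population comparison (12000 genes) it found 85.0% of genes changed 4-fold and 46.3% of those changed 2-fold. For the Flt3 contrast in Lin-kit+ libraries (10500 genes) it found 93.3% and 78.3%. On average 8.67 of 140 calls were false in the population comparison and 11 of 183 in the Flt3 contrast. Changes were set in few genes, evenly up and down, unlike the 63.1% called between populations. The Flt3 contrast in reporter-positive libraries and the difference of the contrasts were not simulated. Cells were clustered with scanpy 1.11.5 and leidenalg 0.10.2 on 2000 variable genes without the members, Flt3 and Fgd5 (30 components, 15 neighbours, resolution 2, settings chosen after the clusters had been seen), giving 31 clusters. Scrublet marked 165 doublets (1.28%), which were kept. Odds ratios used 10 strata of UMI total. Thinning to 1500 UMIs left out 173 cells of Lin-kit+ b, 86 of HSC-Fgd5+ and at most 5 of any other library. Named were the 9 members, up to 4 other lymphoid genes with the largest change per contrast, the myeloid list and the 3 genes most like each member. A gene that these rules also name is not reported here.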

Additional observations from a re-analysis of the deposited data

Results flagged for a closer look

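For 4 genes the change between cells with and without a Flt3 UMI differed between the populations by a test of the difference itself (edgeR interaction term, adjusted over 10468 genes, of which 6.88% passed). The difference on the log2 scale, reporter-positive minus Lin-kit+, was -2.65 for Il12a (SE 0.38), -1.67 for Ltb (SE 0.31), -2.32 for Satb1 (SE 0.73) and 1.87 for Cd52 (SE 0.28), with edgeR adjusted p of 3.02e-07, 7.79e-05, 0.0355 and 5.55e-06. Ltb and Satb1 did not pass by DESeq2 (adjusted p = 0.306 and 0.187). With no replicate block Ltb, Satb1 and Cd52 did not pass (edgeR adjusted p = 0.331, 0.0789 and 0.0512). In cells thinned to 1500 UMIs Il12a, Satb1 and Cd52 did not pass (edgeR adjusted p = 0.205, 0.992 and 0.624), and Ltb did (0.00863). Satb1 kept its call in 6 of 12 alternatives and lost it without Lin-kit+ c, Fgd5+ or HSC-Fgd5+ (edgeR adjusted p = 0.0543, 0.143 and 0.268). Cd52 came to 1.42 (edgeR adjusted p = 0.0512) without the dendritic-like and Siglech-led clusters, an alternative chosen after seeing the data. Reporter-positive cells with Flt3 numbered 52 and 17, or 9 and 4 after thinning, and were deeper than the rest. Thinned counts on so few cells cannot decide the part of depth, which was not tested otherwise. There were 6 Fgd5+ cells and 1 HSC-Fgd5+ cell with both Flt3 and Il12a.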

How the results depend on the processing

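Ltb, Dntt, Cd52 and Satb1 kept their direction and passed the test between populations under all 11 alternatives. The genes called numbered 5964 to 7668 and the members called 4 to 7 with 1 library left out. Notch1 did not pass by DESeq2, with library totals, or without Lin-kit+ b, Lin-kit+ c or Fgd5+, and Il12a passed without the filter and without Lin-kit+ a. With library totals the sign turned for Notch1 (0.0939), Il12a (0.225) and Ebf1 (0.114), and Ebf1 also turned without Lin-kit+ a (0.222) and without Fgd5+ (1.03), and ranged from -7.62 to 1.03 with 1 library left out. No paired analysis was possible for this comparison because the labels give no replicate numbers.

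In the Flt3 contrast, DESeq2 called 1499 genes, thinned cells 595 (of fewer genes tested) and the fit with no replicate block 1607, against 2639 with the library as block, where cells with and without Flt3 come from the same library. With no replicate block 5 members passed. Leaving out 1 library gave 1592 to 2899 genes, the lowest without Lin-kit+ c, and 7 to 8 members. Cd52 turned to 0.102 in thinned cells. Dntt, Il7r, Il12a, Satb1 and Notch1 passed under all 12 alternatives. The difference between populations was called for 720 genes, 414 by DESeq2, 196 in thinned cells, 265 with no replicate block and 243 to 675 with 1 library left out, the lowest without Fgd5+. There Cd52 turned to -8.07 and Satb1 to 0.0802 in thinned cells, both with few counts. The cause was not tested.

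The odds ratio of Dntt and Mpo was 0.474, moved to 0.182 in thinned cells, and was 0.384 to 0.551 with 1 library left out. Satb1 with Mpo turned to 0.631 in thinned cells, and without strata Il12a with Mpo came to 1.07 and Notch1 with Elane to 1.23. At resolution 1 with 20 components, a setting added after seeing the data, 1 cluster of 1006 cells held 67.6% of Dntt UMIs. Depth limits Rag1, Ebf1 and Il7r in reporter-positive cells.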
